A study of Homo sapiens with 16 samples.

Results

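The genes described here are 41 interferon response and antigen presentation genes out of the 23284 genes in the table, taken by symbol from a fixed list. They comprise 4 transcription factors of the response, 9 sensors or enzymes that act on foreign nucleic acid, 14 antiviral effectors, 8 other interferon-stimulated genes, 2 chemokines and 4 genes of class I antigen presentation. All 41 had a row in the authors' deposited table. The choice of genes used no measured value of these samples as a rule, but it was made with earlier results of these data known.

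The study sequenced poly-adenylated RNA from WA01 human embryonic stem cells, an established line, on their way to neural crest, the migratory embryonic population that forms peripheral neurons, pigment cells and facial skeleton. It asked what loss of FOXB1, a forkhead transcription factor, does to gene expression on that path. All cells were plated at 20000 per cm2 with 3 µM CHIR99021, a GSK3 inhibitor that activates WNT signalling, and Y-27632, a ROCK inhibitor, was added at 10 µM in the first days. Cells were taken at day 3 (pre-neural crest) and day 5 (neural crest). The wild-type cells were 2 isogenic unedited lines, isoWT1 and isoWT2. The Het and KO lines carried CRISPR/Cas9 edits made with 1 guide RNA at the start codon of FOXB1, and whether each is a single clone is not given in the sources used here. Every line had 2 libraries per day, 16 in all.

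The authors' deposited table gives 1 level per gene for each of 6 groups, in FPKM, a fragment count scaled by transcript length and library size, and no value per library. It holds a single wild-type group per day, and which of the isoWT1 and isoWT2 libraries entered it is not stated. The group it names HOMO was read as KO. Nothing in the labels says that the 2 libraries of a line came from separate cultures, so the p-values may measure technical spread alone. Depth per library is unknown. A gene was called where the deposited q-value was below 0.05, and standard errors (SE) of log2 changes were derived from the deposited test scores. The edited gene FOXB1 had levels of 18.3, 7.73 and 15.5 FPKM in wild type, Het and KO at day 3, and of 5.51, 4.47 and 1.86 FPKM at day 5. It was called lower in Het at day 3 and in KO at day 5, and the level in KO at day 3 did not differ from wild type beyond its error (log2 change -0.24, SE 0.56). An edit at the start codon need not change the RNA level, so these levels check the labels only in part.

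Interferons are secreted proteins that cells release on sensing foreign nucleic acid. They act through cell surface receptors and JAK kinases on transcription factors that include STAT2 and IRF9, whose complex binds the interferon-stimulated response element in promoters. Type II interferon acts at gamma-activated sites and is a strong inducer of class I antigen presentation. Embryonic stem cells are known for a weak interferon response, which is gained as they differentiate.

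Of the 41 genes, 21 were called in at least 1 of the 9 comparisons used and 20 in none. Of the 31 tested in at least 1 comparison, that is 67.7%, and over the 15705 genes of the table so tested it was 36.6%; members that are high in 1 group alone passed the test minimum through that group, so nothing is read from this. Between 19 and 21 of the 41 genes reached 1 FPKM in each group other than KO at day 5, where 27 did. Over all genes of the table, 13098 to 13326 reached it in those groups and 13563 in KO at day 5. KO at day 5 was the group with the highest level for 21 of the 41 genes, Het at day 5 for 8 and the other 4 groups for 2 to 5 each. The share of all genes highest in each group was not counted, so nothing is read from this order. The table tested 23 of the genes in all 9 comparisons, 10 in none and 8 in some.

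**Figure D1:**
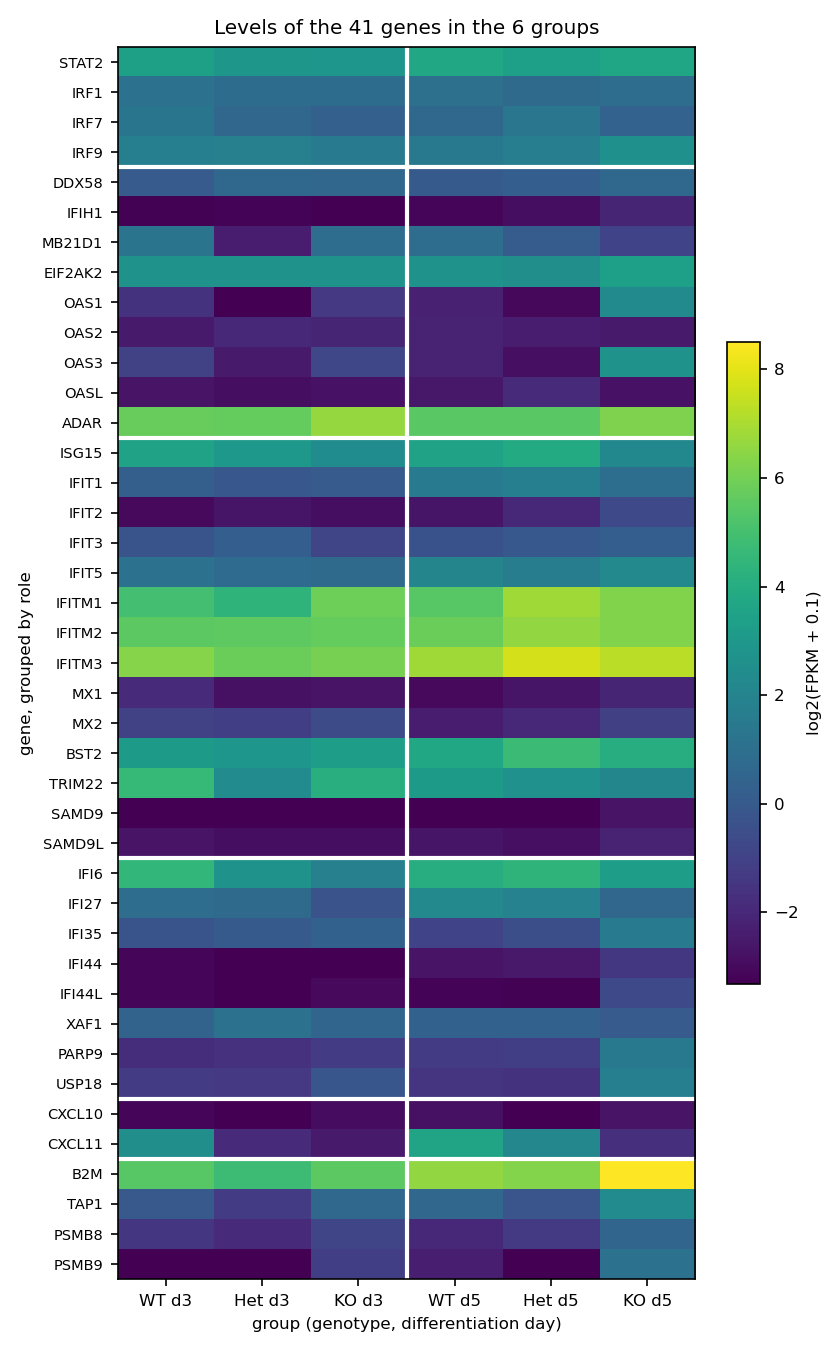
Levels of the 41 genes, as log2 of FPKM plus 0.1, in wild type (WT), Het and KO at day 3 (left) and day 5 (right), 1 value per gene and group from the authors' deposited table. White lines divide the roles, which run from transcription factors at the top to antigen presentation at the bottom. The brightest cell is B2M in KO at day 5, at 363 FPKM.

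Promoter windows show what part of the list carries the sequence bound by the interferon-activated factors. RefSeq windows of 250 bases before the start (GRCh38.p14) were matched for 31 of the 41 genes. Each was searched on both strands for the core of the response element, which is GAAA, then any 2 bases, then GAAA, and for the gamma-activated site, TTCNNNGAA. Matches can overlap each other and were counted as they fell. A gene with several windows was counted as holding a sequence if any of its windows did. The core was found in 19 of the 31 genes (61.3%), in 28 of 86 other genes of the pathway (32.6%) and in 3.71% of all 27305 genes with a window, or 3.02% of all 35116 windows. The gamma-activated site was found in 11 of the 31 genes (35.5%) and in 8.09% of all genes with a window, or 6.57% of all windows. A match describes the letters in a window and does not show binding.

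Shown first are the 160 bases before a start of the genes called higher in KO than wild type at day 5 that hold the core there. Each core is in capitals. TAP1 and PARP9 have 2 windows each, of which the one shown holds the core and the other does not. All run 5′ to 3′ on the gene's own strand, with coordinates in GRCh38.p14. B2M is at chr15:44711357-44711516 (plus strand), TAP1 at chr6:32853705-32853864 (minus), OAS3 at chr12:112938314-112938473 (plus) and PARP9 at chr3:122564301-122564460 (minus).
B2M: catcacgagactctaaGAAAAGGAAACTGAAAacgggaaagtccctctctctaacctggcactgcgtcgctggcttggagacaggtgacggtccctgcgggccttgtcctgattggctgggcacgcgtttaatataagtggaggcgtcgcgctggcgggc
TAP1: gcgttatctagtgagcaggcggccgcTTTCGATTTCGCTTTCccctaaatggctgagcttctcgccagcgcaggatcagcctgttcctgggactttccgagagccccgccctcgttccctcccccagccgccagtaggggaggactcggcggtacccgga
OAS3: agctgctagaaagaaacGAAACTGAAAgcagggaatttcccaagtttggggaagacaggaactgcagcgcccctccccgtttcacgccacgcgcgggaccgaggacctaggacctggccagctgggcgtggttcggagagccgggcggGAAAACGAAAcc
PARP9: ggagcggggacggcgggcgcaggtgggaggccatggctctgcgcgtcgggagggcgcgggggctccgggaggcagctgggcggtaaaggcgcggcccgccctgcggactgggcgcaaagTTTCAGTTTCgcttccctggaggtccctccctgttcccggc

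The next set holds the core as well, in genes that were not called higher in that comparison. IFI27 has 2 windows that both hold the core, and the first is shown. IFIT1 is at chr10:89392463-89392622 (plus strand), ISG15 at chr1:1013337-1013496 (plus), IFI6 at chr1:27672193-27672352 (minus) and IFI27 at chr14:94110576-94110735 (plus).
IFIT1: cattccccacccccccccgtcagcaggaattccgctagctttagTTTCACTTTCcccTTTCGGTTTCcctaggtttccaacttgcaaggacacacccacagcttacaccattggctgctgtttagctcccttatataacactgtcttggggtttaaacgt
ISG15: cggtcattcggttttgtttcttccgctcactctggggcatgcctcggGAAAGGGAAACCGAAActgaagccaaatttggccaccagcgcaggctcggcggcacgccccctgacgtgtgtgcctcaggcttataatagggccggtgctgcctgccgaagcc
IFI6: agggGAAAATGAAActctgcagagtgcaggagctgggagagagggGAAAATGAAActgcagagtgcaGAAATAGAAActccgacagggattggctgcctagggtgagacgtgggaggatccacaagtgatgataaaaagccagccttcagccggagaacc
IFI27: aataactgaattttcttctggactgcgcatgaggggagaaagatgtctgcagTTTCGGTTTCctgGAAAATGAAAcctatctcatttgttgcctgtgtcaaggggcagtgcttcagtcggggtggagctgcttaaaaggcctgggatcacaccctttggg

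Genes with and without a higher level in KO at day 5 both held the core. Among genes with a window, it was in 4 of 6 called higher in KO against wild type at day 5, in 1 of 2 called lower, in 9 of 17 tested and not called, and in 5 of 6 not tested. ADAR and IFI35 were the genes called higher whose windows held no match to it.

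In KO against wild type at day 5, 31 of the 41 genes were tested. ADAR, B2M, IFI35, OAS3, PARP9, TAP1 and USP18 were higher, 7 in all, and CXCL11, IFI27, MB21D1 and TRIM22 were lower, 4 in all. Over all genes tested in that comparison, the authors' deposited table called 7.58% higher and 5.68% lower. The median change of the 41 genes, on log2 of FPKM plus 0.1, was 0.61, against 0.06 over all genes, and 28 of 41 were above 0. With 1 FPKM added in place of 0.1 the median was 0.27. The higher genes numbered 11 with calls remade from the test scores, and 5 without genes on chromosome 12 or the long arm of chromosome 1. Several genes entered the test through KO alone. OAS1, OAS3, IFI44L, PARP9, PSMB8 and PSMB9 were tested only in comparisons that hold KO at day 5, and USP18 only in comparisons that hold KO, so the counts over tested genes are no support for a rise of the list.

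**Figure D2:**
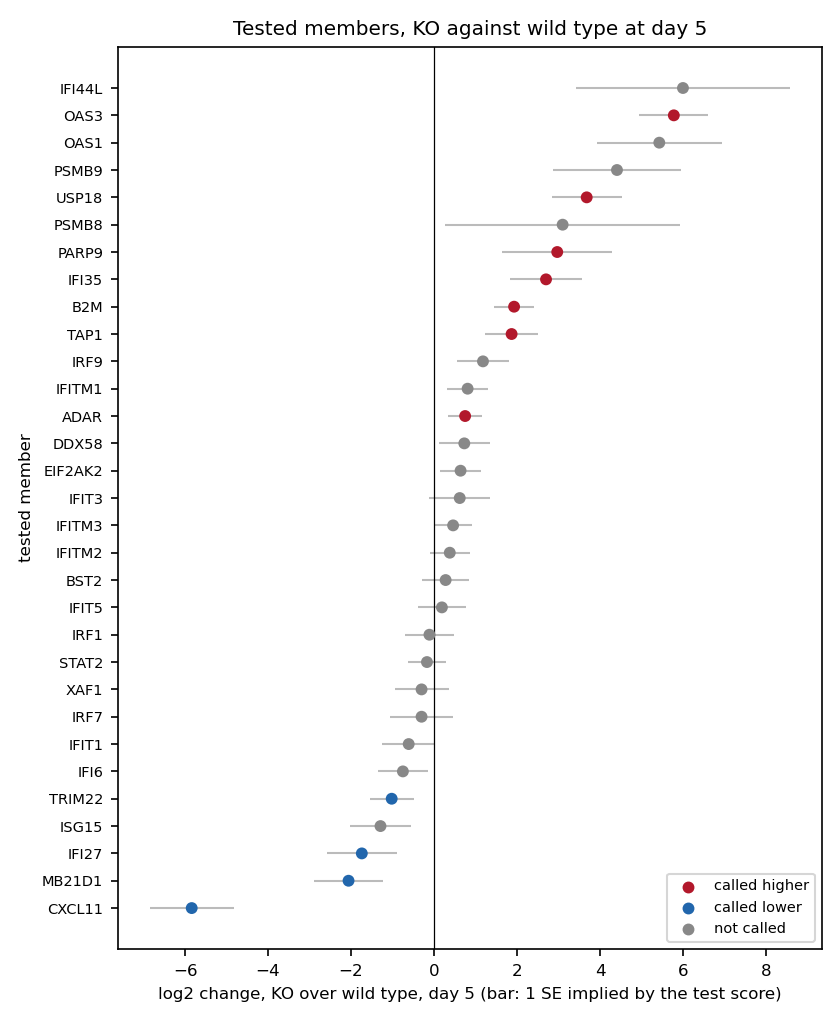
Log2 change of the tested genes, KO over wild type at day 5, with bars of 1 SE implied by the deposited test scores. Red points were called higher (7), blue points lower (4) and grey points not called. OAS3 (5.78) and CXCL11 (-5.84) lie at the ends of the called genes, and IFI44L, OAS1, PSMB9 and PSMB8 have large values with wide bars.

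In Het against wild type at day 5, 24 genes were tested. IFITM1 and IFITM3 were higher, 2 in all, beside 1.14% of all tested genes, and 0 were lower, beside 1.02%. At an unadjusted Cuffdiff p below 0.05, 1 gene was lower. The median change was 0.03, against -0.01 over all genes. In KO against Het at day 5, B2M, IFI35, OAS3, PSMB9, TAP1 and USP18 were higher, 6 of 31 tested (5.55% of all tested genes), and CXCL11 and ISG15 were lower, 2 of 31 (2.51%). The median change was 0.55, or 0.12 with 1 FPKM added, against 0.05 over all genes. KO against wild type and Het against wild type share the wild-type group.

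At day 3, 24 or 25 genes of the list were tested in each comparison of lines. In KO against wild type, ADAR and IFITM1 were higher, 2 of 25 tested (4.34% of all tested genes), and IFI6 was lower, 1 of 25 (5.17%). The median change was 0.03, against -0.02 over all genes. In Het against wild type, 0 of 24 tested were higher (1.68% of all tested genes), and 1 was at an unadjusted Cuffdiff p below 0.05. CXCL11, IFI6, MB21D1 and TRIM22 were lower in Het, 4 of 24 (4.63%), with a median change of -0.21, against -0.03 over all genes. In KO against Het, ADAR, IFITM1, TAP1 and TRIM22 were higher, 4 of 24 (2.30%), and 0 were lower (0.540%), or 1 at an unadjusted Cuffdiff p below 0.05. The median change was 0.17, against 0.01 over all genes.

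From day 3 to day 5, B2M, CXCL11, IFI27, IFIT1 and IFIT5 rose in wild type, 5 of 24 tested (11.2% of all tested genes), and TRIM22 fell, 1 of 24 (10.4%). In Het, B2M, BST2, CXCL11, IFI6, IFIT1, IFITM1, IFITM2 and IFITM3 rose, 8 of 24 (4.74%), and 0 fell (2.83%), also 0 at an unadjusted Cuffdiff p below 0.05. In KO, B2M, IFI6, IFIT5, IFITM3, OAS1, OAS3, PARP9, PSMB9, TAP1 and USP18 rose, 10 of 30 (7.29%), and MB21D1 and TRIM22 fell, 2 of 30 (4.53%). The median changes of the list were 0.02, 0.43 and 0.81 in wild type, Het and KO, against -0.03, 0.02 and 0.07 over all genes, and with 1 FPKM added they were 0.01, 0.13 and 0.50. B2M alone was called in the time course of all 3 genotypes.

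Whether the day 5 against day 3 change differed between lines was tested as the difference of the log2 changes over its implied SE, with Benjamini-Hochberg adjustment over all genes. For Het minus wild type, 0 of 24 genes passed in either direction, beside 0.0702% of all genes higher and 0.0421% lower. For KO minus wild type, 0 of 23 passed, beside 0.205% higher and 0.113% lower, and 2 were higher at an unadjusted p below 0.05. Only genes tested over time in both lines could enter. OAS1, OAS3, PARP9, PSMB9 and USP18, called as rising in KO, were not tested in the wild-type time course, so their difference was not tested. The median differences were 0.45 in Het and 0.23 in KO, against 0.02 and 0.05 over all genes. With the SE scaled to the deposited p-values, CXCL11, IFI6, IFITM1, MB21D1 and TRIM22 passed in Het, 5 in all, beside 0.772% of all genes higher, and B2M and IFI6 passed in KO, 2 in all, beside 3.01%. So the test of the difference passed for these genes only with the smaller errors.

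Of the class I antigen presentation genes, B2M and TAP1 were higher in KO than in either other genotype at day 5. B2M encodes the invariant light chain of class I molecules and lies on chromosome 15 (45003685 to 45010357 in hg19). It stood at 42.4, 27.2 and 45.7 FPKM in wild type, Het and KO at day 3, and at 95.0, 80.1 and 363 FPKM at day 5. It was the most abundant gene of the list in KO at day 5, and at day 3 its level there lay near that of wild type. KO exceeded wild type at day 5 by a log2 change of 1.93 (SE 0.49, q = 0.00126 in the authors' deposited table) and Het by 2.18 (SE 0.49). B2M also rose with time, by 2.99 (SE 0.50) in KO, 1.56 (SE 0.48) in Het and 1.16 (SE 0.45) in wild type. The difference of KO and wild type in that rise was 1.83 (SE 0.67). Its adjusted p, from a normal approximation since no permutation of libraries was possible, was 0.404, or 0.00139 with the scaled SE.

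TAP1, a subunit of the pump that carries peptides into the endoplasmic reticulum, stood at 0.882, 0.333 and 1.46 FPKM in wild type, Het and KO at day 3, and at 1.42, 0.763 and 5.19 FPKM at day 5. KO was above wild type at day 5 by a log2 change of 1.87 (SE 0.63). Against Het it was above at both days, by 2.13 (SE 0.83) and 2.77 (SE 0.68). Het was the lowest group at each day.

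PSMB9 and PSMB8 encode subunits of the immunoproteasome, which cuts proteins into peptides for class I display. PSMB9 was listed at 0 in wild type and Het at day 3, at 0.357 FPKM in KO at day 3, and at 0.0976, 0 and 2.08 FPKM in wild type, Het and KO at day 5. It was called higher in KO than Het at day 5 (Het is listed at 0, so no fold is given) and rose with time in KO (log2 change 2.54, SE 1.02). Against wild type at day 5 its change of 4.41 (SE 1.55) was not called (q = 0.259). PSMB8 ran from 0.157 to 1.34 FPKM, was highest in KO at day 5 and was not called (log2 change against wild type 3.10, SE 2.83, q = 0.734). TAP1, PSMB8 and PSMB9 are listed on an alternative haplotype contig of chromosome 6, so reads may be shared with other copies of the locus, and their values are uncertain.

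OAS3 and OAS1 make the short adenylate chains that switch on RNase L, and showed the largest rises of the sensors. OAS3, which in hg19 spans 113376249 to 113411054 on chromosome 12, had levels of 0.398, 0.0802 and 0.467 FPKM in wild type, Het and KO at day 3, and of 0.120, 0.0417 and 6.63 FPKM at day 5. Of the 6 groups, KO at day 5 was the one above 1 FPKM. There it was above wild type by a log2 change of 5.78 (SE 0.83), above Het by 7.31 (SE 0.89) and above its own day 3 level by 3.83 (SE 0.59). Folds from such low levels rest on few fragments.

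OAS1 was likewise highest in KO and lowest in Het at each day, at 0.229, 0 and 0.284 FPKM in wild type, Het and KO at day 3, and at 0.110, 0.0176 and 4.74 FPKM at day 5. It was called in the KO time course (log2 change 4.06, SE 0.87), while the change against wild type at day 5, 5.43 (SE 1.5), was not called (q = 0.591). OAS2 ran from 0.0795 to 0.147 FPKM and OASL from 0.0343 to 0.162 FPKM, with no test. The rise within the OAS family was therefore seen for OAS1 and OAS3 and not for the other members, whose levels were too low to test. All 4 lie on chromosome 12, where the median change of expressed genes was -0.47 at day 3 and -0.50 at day 5 in KO against wild type. With the chromosome median taken off, the day 5 change of OAS3 was 6.28.

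MB21D1, the cytosolic DNA sensor also called cGAS, moved the other way. It stood at 2.24, 0.0955 and 1.77 FPKM in wild type, Het and KO at day 3, and at 1.75, 0.974 and 0.421 FPKM at day 5. Het was lower than wild type at day 3 (log2 change -4.55, SE 1.28, q = 0.0495), a call that was lost with adjustment within the comparison. KO was lower than wild type at day 5 by -2.06 (SE 0.83) and fell with time by 2.07 on the log2 scale (SE 0.82).

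ADAR, which edits adenosine to inosine in double-stranded RNA and so keeps the cell's own RNA from being sensed, was among the 5 most abundant genes of the list in every group. It stood at 53.6, 52.3 and 101 FPKM in wild type, Het and KO at day 3, and at 44.0, 44.1 and 74.3 FPKM at day 5. KO exceeded wild type by a log2 change of 0.91 (SE 0.41) at day 3 and 0.75 (SE 0.41) at day 5, and exceeded Het at day 3 by 0.94 (SE 0.41), a call that was lost with adjustment within the comparison and with the median of all genes, of the chromosome or of the GC bin taken off. ADAR lies on the long arm of chromosome 1 (154554534 to 154600456 in hg19). On that arm the median change of expressed genes in KO against wild type was 0.60 at day 3 and 0.37 at day 5. With that median taken off, the changes of ADAR were 0.30 and 0.38 and were not called.

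The other sensors were called in no comparison. EIF2AK2, the kinase PKR that halts translation on binding double-stranded RNA, ranged from 5.71 to 10.1 FPKM and was highest in KO at day 5, where its change against wild type was 0.64 (SE 0.50, q = 0.203). DDX58, the RNA helicase RIG-I, ranged from 0.913 to 1.51 FPKM. IFIH1, the related helicase MDA5, ranged from 0 to 0.131 FPKM and was not tested.

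None of the 4 transcription factors was called in any of the 9 comparisons. STAT2, a carrier of type I signalling, stood at 10.4, 7.62 and 7.35 FPKM in wild type, Het and KO at day 3, and at 13.6, 10.0 and 12.2 FPKM at day 5. STAT2 also lies on chromosome 12. The median change of expressed genes there against wild type at day 3 was -0.52 in Het and -0.47 in KO, and its part in the STAT2 levels was not tested. IRF9, which gives the complex with STAT2 its DNA binding, ranged from 2.68 to 6.06 FPKM and was highest in KO at day 5. Its change against wild type there, 1.18 (SE 0.62, q = 0.0508), lay just outside the threshold. IRF1 ranged from 1.61 to 2.06 FPKM and IRF7, an inducer of interferon genes, from 1.13 to 2.42 FPKM.

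**Figure D3:**
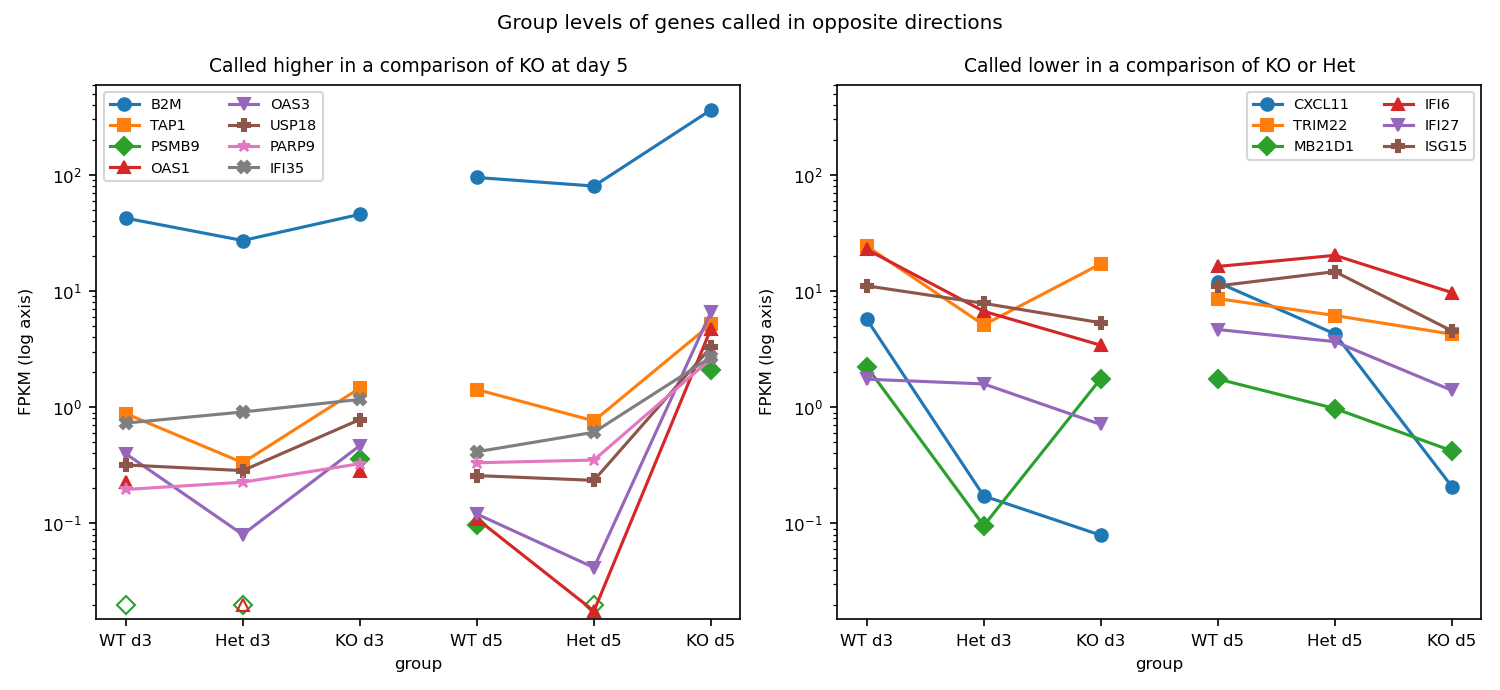
Levels in FPKM (log axis) of genes called in opposite directions, in wild type (WT), Het and KO at day 3 and day 5, 1 value per group from the authors' deposited table. Left, 8 genes called higher in a comparison that holds KO at day 5; right, 6 genes called lower in KO or Het. Open symbols at the foot mark groups listed at 0. B2M rises from 95.0 FPKM in wild type to 363 FPKM in KO at day 5, and CXCL11 falls from 11.9 to 0.207 FPKM.

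Among the antiviral effectors, the IFITM proteins, which block the fusion of viruses with cell membranes, were the most abundant and were highest in Het at day 5. IFITM3 stood at 81.0, 57.5 and 66.7 FPKM in wild type, Het and KO at day 3, and at 113, 213 and 155 FPKM at day 5. Het exceeded wild type at day 5 by a log2 change of 0.91 (SE 0.51), a call that was lost in 5 of the alternative settings. IFITM3 rose with time by 1.89 (SE 0.53) in Het and by 1.22 (SE 0.48) in KO.

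IFITM1 stood at 31.2, 20.5 and 60.0 FPKM in wild type, Het and KO at day 3, and at 43.0, 111 and 75.5 FPKM at day 5. KO exceeded wild type at day 3 by 0.94 (SE 0.53) and Het by 1.55 (SE 0.53). At day 5 it was Het that exceeded wild type, by 1.37 (SE 0.57), after a rise of 2.44 (SE 0.59) within Het. The highest of the 3 genotypes was thus KO at day 3 and Het at day 5.

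IFITM2 stood at 46.4, 47.2 and 51.5 FPKM in wild type, Het and KO at day 3, and at 57.9, 97.0 and 75.5 FPKM at day 5. It rose with time in Het (log2 change 1.04, SE 0.53). The 3 IFITM genes are close copies, so reads could be split among them and their separate values are uncertain.

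BST2, or tetherin, which holds budding virus to the cell surface, stood at 8.50, 7.36 and 9.44 FPKM in wild type, Het and KO at day 3, and at 13.7, 26.8 and 16.6 FPKM at day 5. It rose with time in Het (log2 change 1.86, SE 0.65) and was called in no other comparison. Its order of groups at day 5, with Het highest and wild type lowest, was that of the IFITM genes.

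ISG15, a ubiquitin-like modifier, was lower in KO than in Het at day 5. It stood at 11.1, 7.84 and 5.33 FPKM in wild type, Het and KO at day 3, and at 11.1, 14.7 and 4.54 FPKM at day 5. KO was below Het at day 5 by a log2 change of -1.69 (SE 0.79). Its change against wild type, -1.29 (SE 0.73, q = 0.0598), did not pass.

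The IFIT proteins bind foreign RNA and block its translation. IFIT1 stood at 1.10, 0.811 and 0.942 FPKM in wild type, Het and KO at day 3, and at 2.77, 3.37 and 1.82 FPKM at day 5. It rose with time in wild type (log2 change 1.34, SE 0.69) and in Het (2.06, SE 0.67). IFIT5 stood at 2.01, 1.64 and 1.61 FPKM at day 3 and at 4.05, 3.14 and 4.63 FPKM at day 5. It rose in wild type (1.01, SE 0.56) and in KO (1.53, SE 0.60). IFIT3 ranged from 0.460 to 1.06 FPKM and IFIT2 from 0.0228 to 0.512 FPKM, and neither was called. Both called genes of the family were higher at day 5 than at day 3 in all 3 genotypes, whether or not the change passed.

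TRIM22, an E3 ubiquitin ligase with antiviral action, was highest in wild type at day 3. It stood at 24.3, 5.11 and 17.1 FPKM in wild type, Het and KO at day 3, and at 8.60, 6.16 and 4.25 FPKM at day 5. Het was below wild type at day 3 (log2 change -2.25, SE 0.49) and below KO, which exceeded it by 1.75 (SE 0.50). At day 5 KO was below wild type by -1.02 (SE 0.53), or by -0.86 and not called with the chromosome median taken off. It fell with time in wild type by 1.5 (SE 0.47) and in KO by 2.01 (SE 0.50) on the log2 scale.

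The remaining effectors were near the floor. MX1, a GTPase that traps viral particles, ranged from 0.0244 to 0.163 FPKM, and MX2 from 0.0942 to 0.558 FPKM. SAMD9 ranged from 0 to 0.0527 FPKM and SAMD9L from 0.0342 to 0.124 FPKM. None of these 4 was tested in any comparison.

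The other interferon-stimulated genes moved in opposite directions in KO at day 5. USP18, the protease that removes ISG15 from proteins and damps type I receptor signalling, stood at 0.318, 0.285 and 0.783 FPKM in wild type, Het and KO at day 3, and at 0.258, 0.235 and 3.30 FPKM at day 5. KO exceeded wild type at day 5 by a log2 change of 3.68 (SE 0.84) and Het by 3.81 (SE 0.88), after a rise of 2.07 (SE 0.70) within KO. PARP9, an ADP-ribosyltransferase family member, stood at 0.196, 0.226 and 0.326 FPKM at day 3 and at 0.332, 0.351 and 2.61 FPKM at day 5. It was above wild type by 2.97 (SE 1.32, q = 0.0492), just inside the threshold, and rose with time in KO by 3.00 (SE 1.22). PARP9 overlaps exons of DTX3L on the opposite strand, and DTX3L was also called higher in KO at day 5 (1.18 FPKM in wild type and 3.53 in KO), so without known strandedness their reads cannot be told apart. IFI35 stood at 0.730, 0.910 and 1.17 FPKM at day 3 and at 0.414, 0.609 and 2.70 FPKM at day 5. KO was above wild type by 2.70 (SE 0.86) and above Het by 2.15 (SE 0.85) at day 5. For these genes KO at day 5 was the only group above 2 FPKM.

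IFI6, a mitochondrial and endoplasmic reticulum protein that limits cell death, was lower in both edited lines at day 3. It stood at 22.8, 6.69 and 3.42 FPKM in wild type, Het and KO at day 3, and at 16.3, 20.3 and 9.69 FPKM at day 5. KO was below wild type at day 3 by a log2 change of -2.74 (SE 0.65) and Het by -1.77 (SE 0.60). It then rose in Het by 1.60 (SE 0.59) and in KO by 1.5 (SE 0.68), and at day 5 KO was no longer called against wild type (-0.75, SE 0.60). Its rise exceeded that of wild type by 1.99 (SE 0.88) in KO, with an adjusted p of 0.786, or 0.0159 with the scaled SE.

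IFI27 stood at 1.74, 1.59 and 0.710 FPKM in wild type, Het and KO at day 3, and at 4.66, 3.67 and 1.40 FPKM at day 5. It rose in wild type (log2 change 1.42, SE 0.78), and KO was below wild type at day 5 by -1.74 (SE 0.85). KO was the lowest group at both days. XAF1, which promotes cell death, ranged from 0.960 to 2.08 FPKM and was not called. IFI44 ranged from 0 to 0.274 FPKM. IFI44L ranged from 0 to 0.518 FPKM, was highest in KO at day 5 and was not called there (q = 0.412).

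CXCL11, a chemokine that draws T cells through the receptor CXCR3, gave the largest fall of the list. It stood at 5.72, 0.172 and 0.0791 FPKM in wild type, Het and KO at day 3, and at 11.9, 4.28 and 0.207 FPKM at day 5. Het was below wild type at day 3 by a log2 change of -5.05 (SE 1.05). KO was below wild type at day 5 by -5.84 (SE 1.01) and below Het by -4.37 (SE 1.18). At day 3 the change of KO against wild type, -6.18 (SE 1.24), was not called (q = 0.110). CXCL11 rose with time in wild type by 1.05 (SE 0.61) and in Het by 4.63 (SE 1.20), and stayed below 0.3 FPKM in KO. CXCL10, a ligand of the same receptor, ranged from 0 to 0.0550 FPKM. The authors' deposited table lists CXCL10 and CXCL11 with a shared interval, so their separate values are uncertain.

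Genes of the wider pathway, a list of 116 of which 115 were in the table, were counted in the same way. Of 84 tested there, 19 were higher and 5 lower in KO than in wild type, beside 7.58% and 5.68% of all tested genes, and the median change was 0.43, against 0.06 over all genes. As with the members, some entered the test through KO: 11 of the 84, SP110, PARP12, PARP14, IKBKE and ERAP2 among them, were not tested in Het against wild type at day 5, and 8 of these 11 are among the 19, so the counts do not support a rise of the list. In Het at day 5, 1 of 73 tested was higher and 1 lower, beside 1.14% and 1.02% of all tested genes. The 10 interferon ligands were not tested in any comparison, with 0.309 FPKM of IFNE as the highest level and 3 listed at 0 in every group. None of the 9 receptors and kinases was called in KO against wild type at either day.

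Sensing adaptors held 4 higher and 0 lower genes of 10 tested in KO against wild type at day 5, to be read, as for the next roles, beside the same 7.58% and 5.68%. IKBKE, a kinase on the long arm of chromosome 1 that activates IRF3, stood at 0.0779 FPKM in wild type and 2.26 in KO (log2 change 4.86, SE 1.04). TRIM25, the ligase that activates RIG-I, stood at 2.1 and 9.84 FPKM (2.23, SE 0.52). IFI16, a DNA sensor also on the long arm of chromosome 1, stood at 0.906 and 2.36 FPKM (1.38, SE 0.63). The median change of expressed genes on that arm, 0.37 in this comparison, was not taken off for IKBKE and IFI16. Further interferon-stimulated genes held 9 higher and 2 lower of 32 tested. Largest among those at 1 FPKM or more were SP110 (4.08, SE 0.90), PARP12 (3.58, SE 0.71), TRIM14 (2.44, SE 1.08) and PARP14 (2.26, SE 0.61).

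Further antigen presentation genes held 6 higher and 2 lower of 23 tested in the same comparison. ERAP2, which trims peptides to class I length, stood at 0.301, 0.186 and 4.42 FPKM in wild type, Het and KO at day 5 (log2 change against wild type 3.87, SE 0.69). TAP2, the partner of TAP1, stood at 1.09, 1.08 and 3.88 FPKM (1.83, SE 0.70). HLA-B (18.6, 12.7 and 12.6 FPKM) and HLA-C (34.7, 30.8 and 30.3 FPKM), class I heavy chains, were not called in KO against wild type at day 5. HLA genes are highly alike and many are listed on haplotype contigs, so these values are uncertain.

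**Figure D4:**
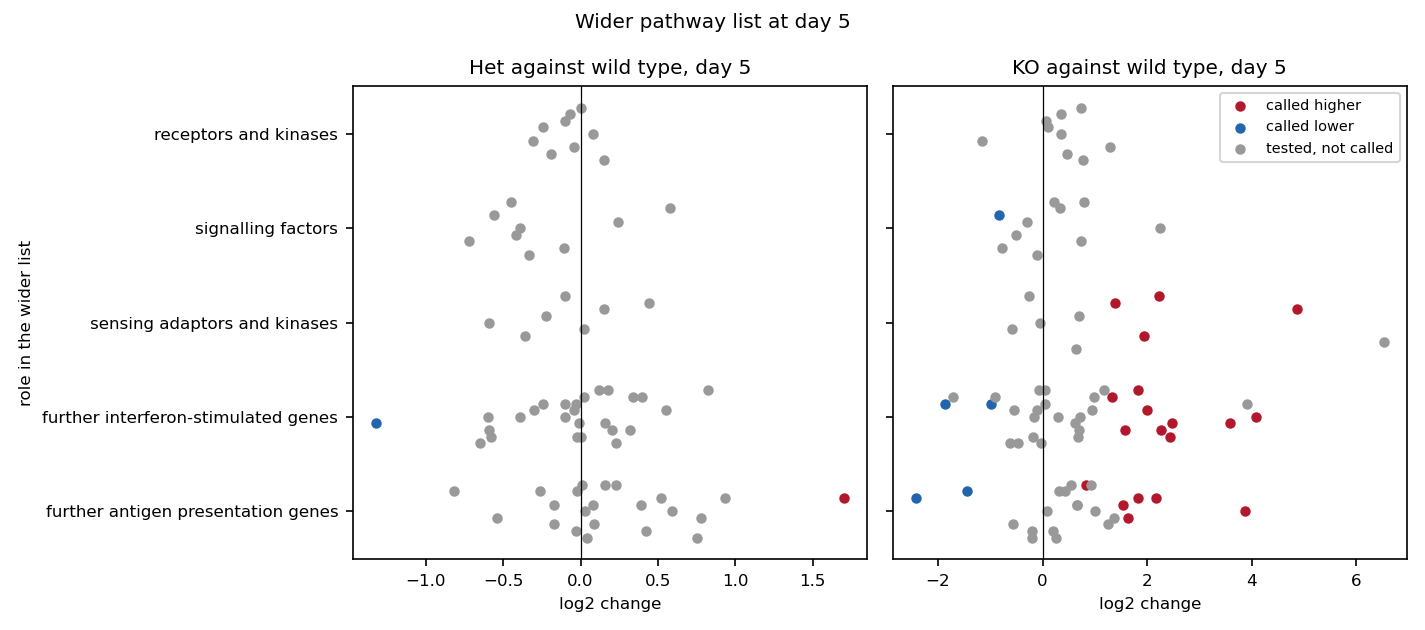
Log2 change against wild type at day 5 of tested genes of the wider pathway list, by role, for Het (left) and KO (right); the horizontal scales differ. Points are single genes, red if called higher, blue if called lower and grey if tested and not called. In KO 19 genes are red and 5 blue, and in Het 1 is red and 1 blue.

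Markers of the cells present also differed between the groups. The summed level of 9 neural crest markers was 18.3, 64.7 and 84.5 FPKM in wild type, Het and KO at day 3, and 62.6, 102 and 240 FPKM at day 5, and SOX10, a defining crest marker, stood at 0.388 FPKM in wild type and 34.6 in KO at day 5. The 7 pluripotency markers summed to 758, 650 and 899 FPKM in wild type, Het and KO at day 3, and to 509, 410 and 360 FPKM at day 5. Most of the day 5 sum was LIN28A and SOX2, the latter also a neural progenitor gene. In KO against wild type at day 3, NANOG and TDGF1 were called higher and SOX2 lower. At day 5, 4 of the 7 were above wild type in KO, with a median log2 change of 0.28. POU5F1, a core stem cell factor, was called higher there, at 3.61, 4.79 and 8.56 FPKM in wild type, Het and KO, while DPPA4 and SOX2 were called lower. NANOG was at most 1.25 FPKM at day 5. The 5 neural progenitor markers summed to 280, 217 and 104 FPKM there. The 5 fibroblast and mesenchyme markers summed to 35.1, 26.9 and 35.8 FPKM and were mixed in KO against wild type: LUM was called higher, COL3A1 and PDGFRB were called lower, and DCN stood at 0.283, 0 and 12.1 FPKM. The 4 endothelial markers summed to 18.7, 19.7 and 11.9 FPKM, with KDR called higher and TEK lower (17.9 FPKM in wild type and 8.66 in KO). The part of these differences in the changes of the interferon and antigen presentation genes was not tested, and in bulk RNA fewer cells of a type and less RNA per cell cannot be told apart. The 7 blood and immune markers summed to 1.64 to 2.18 FPKM in the 6 groups, with CD68 the only one at 1 FPKM or more and PTPRC, which defines white blood cells, at or near 0.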

How the data were processed

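Poly-adenylated RNA was sequenced, and the submitters' processing notes name TopHat2 2.1.1, Cuffdiff 2.2.1 and hg19. The annotation version and strandedness were not given in the sources used; 10 of the 41 genes have an exon that overlaps one on the opposite strand in GENCODE (GRCh38), and 1 symbol was not matched. The authors' deposited table has 349260 lines, 23284 genes in each of 15 comparisons, of which 9 were used. The deposited levels are group FPKM. Fold changes were deposited on the log2 scale, with the authors' test score, p-value and q-value. The q-value is adjusted over 222234 tests, and the smallest deposited p-value is 5.0e-05.

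Computed here were the implied SE (log2 change over score), list medians on log2(FPKM + 0.1), and the difference of time courses. That difference was tested against a normal distribution on both sides and adjusted over genes by Benjamini-Hochberg (Python 3.11.15, pandas 2.3.3, numpy 2.4.6, scipy 1.17.1, matplotlib 3.10.9). The test was run on simulated data whose noise was drawn at the implied SE, so that run does not check the SE itself. Scores were 0.55 to 0.71 of the normal deviate of the deposited p, and in 1 alternative the SE was multiplied by this ratio. Expressed genes have at least 1 FPKM in both groups compared. Members and lists were chosen with earlier results of these data known. Named are members called in any comparison or among the 5 highest of a group, with the others by range, and up to 4 called genes per role of the wider list that reach 1 FPKM, by size of change. HLA-B, HLA-C and some values of genes that were not called were added after their values were seen. Coordinates of genes that share an interval in the table are not given. RefSeq promoter windows are in GRCh38.p14, and no coordinate was converted between builds.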

Additional observations from a re-analysis of the deposited data

Results flagged for a closer look

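LGALS3BP, a secreted glycoprotein of the wider interferon-stimulated list, changed differently with time in KO and wild type. It stood at 24.7, 11.2 and 13.5 FPKM in wild type, Het and KO at day 3, and at 6.83, 12.1 and 27.1 FPKM at day 5. Its log2 change from day 3 to day 5 was -1.85 in wild type and 1.01 in KO, a difference of 2.86 (SE 0.68). Its p adjusted over all genes was 0.0113, from a normal approximation on the implied SE, since no permutation of libraries was possible. It was the 1 gene of 72 tested in the wider list that passed, beside 0.205% of all genes higher. At an unadjusted p below 0.05, 10 of the 72 were higher. The share of all genes past the unadjusted p was not counted, so nothing is read from that number.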

How the results depend on the processing

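No paired analysis was possible because the table holds group levels and no value per library, and for the same reason no library could be left out. No called gene changed sign under any alternative run. Of 424 values of single genes under alternatives, 29 lost the call. The other 395 kept the call or, with 1 FPKM added, kept their sign, since no call was remade in that setting. With 1 FPKM added, the median fell from 0.61 to 0.27 in KO against wild type and from 0.55 to 0.12 in KO against Het at day 5, and medians near 0 changed sign: in KO against wild type at day 3 from 0.03 to -0.20 with genes at 1 FPKM or more, and in Het at day 5 from 0.03 to -0.01. In KO against wild type at day 3, the 2 higher genes became 1 with adjustment within the comparison, 0 with a minimum log2 change of 1, 1 without genes on chromosome 12 or 1q and 1 without the IFITM genes; the 1 lower became 2 with the median of all genes, of the chromosome or of the GC bin taken off, and 2 with calls remade from the scores. At day 5 the 7 higher became 11 with the median of all genes taken off or calls remade. They became 10 with the chromosome median or GC bins and 8 with adjustment within the comparison. With a minimum log2 change of 1, or without genes on haplotype contigs, they became 6. Without genes on chromosome 12 or 1q they became 5. In Het against wild type at day 5, the 2 higher became 1 with adjustment within the comparison, the minimum change, the median of all genes, GC bins or remade calls, and 0 without the IFITM genes. In KO against Het, the 4 higher at day 3 became 2 with adjustment within the comparison, and the 2 lower at day 5 became 1 with the chromosome median or GC bins. In the Het time course the 8 higher became 5 without the IFITM genes. The 0 genes past the test of the difference became 5 in Het and 2 in KO with the scaled SE. GC content was matched for 97.6% of members. Remade calls and the settings that leave genes out were chosen after seeing the data. The cause of these shifts was not tested.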

Other observations

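Class II presentation genes, which serve the display of proteins taken up from outside, did not move together. CD74, the invariant chain of class II molecules, stood at 4.70, 15.2 and 21.1 FPKM in wild type, Het and KO at day 5 and was called higher than wild type in Het (log2 change 1.70, SE 0.63) and in KO (2.17, SE 0.58). HLA-DRA, a class II chain, stood at 1.12, 0.634 and 0.208 FPKM there and was lower in KO (-2.42, SE 1.05). CIITA, the master activator of class II genes, ran from 0.239 to 0.461 FPKM over the 6 groups.

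The receptor IL28RA, which binds type III interferons, fell in KO from 2.62 FPKM at day 3 to 0.687 at day 5 (log2 change -1.93, SE 0.60), while IFNAR1, a chain of the type I receptor, rose from 3.24 to 7.22 FPKM (1.15, SE 0.50). IRF2, a repressor of interferon-stimulated genes, rose with time in wild type (1.19, SE 0.64), Het (1.71, SE 0.71) and KO (3.05, SE 0.66). TMEM173, the adaptor STING downstream of MB21D1, stood at 0.233 FPKM at day 3 and 2.36 at day 5 in KO and rose there (3.34, SE 0.86), and its level was below 0.3 FPKM in every other group. Its change against wild type at day 5, 6.52 (SE 1.73), was not called (q = 0.511).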
